A study of Homo sapiens with 3 samples.

Results

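Autophagy and mitophagy genes were followed in MDA-MB-231, a cultured line derived from a human breast tumour and classed as basal-like. The 34 genes were chosen by name from general knowledge of the pathway, with no measured value in the rule but with earlier results of these data known. All 34 have a row among the 19049 usable gene rows of the deposited table. Every group had its own KAP1 depleted with a short hairpin RNA and carried a re-expressed KAP1, the corepressor encoded by TRIM28. The groups differ in the serine under study: wt keeps it, S473A has alanine, which cannot be phosphorylated, and S473D has aspartate, whose charge imitates a phosphate. Each form gave 1 library from cells grown in medium with 10% serum at 37°C and 5% CO2, so the comparisons describe single libraries of 1 line, and no difference here has a replicate check or a p-value. They ask how transcript levels with each substitution differ from those with wild-type KAP1. Of the 34 genes, 33 passed a minimum mean of 1 RPKM over the 3 libraries (RPKM is a read count divided by gene length and by the reads counted in the library), and ULK2 did not.

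Macroautophagy wraps cytoplasm in a double membrane, the autophagosome, and delivers it to the lysosome. A protein kinase complex around ULK1 starts the process, a lipid kinase complex marks the growing membrane with phosphatidylinositol phosphate, and a pair of ubiquitin-like conjugation reactions attaches proteins of the ATG8 family to the membrane lipid. Cargo receptors bind ATG8 proteins and so bring in protein aggregates, organelles or, in mitophagy, damaged mitochondria. Cancer cells are known to use the pathway to survive nutrient shortage and to remove faulty mitochondria.

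The highest and lowest differences of the 33 genes between S473D and wt belonged to ATG3, ATG5 and AMBRA1, and the sequences before their starts are shown because the results turn on these genes. ATG3 was also the only gene among the 30 in the promoter table whose window held CACGTG, the core of the element that TFEB, a member of the group, binds at autophagy and lysosome genes. The sequences are from RefSeq (GRCh38.p14), written 5′ to 3′ on the gene's strand, with CACGTG in capitals. The ATG3 stretch, chr3:112561952-112562212 on the minus strand, holds 250 bases before the start and the next 11 transcribed bases. The ATG5 stretch is chr6:106325438-106325687 and the AMBRA1 stretch chr11:46594024-46594273, both on the minus strand, 250 bases long and before the outermost of 2 starts in the table. They hold 0 matches.
ATG3: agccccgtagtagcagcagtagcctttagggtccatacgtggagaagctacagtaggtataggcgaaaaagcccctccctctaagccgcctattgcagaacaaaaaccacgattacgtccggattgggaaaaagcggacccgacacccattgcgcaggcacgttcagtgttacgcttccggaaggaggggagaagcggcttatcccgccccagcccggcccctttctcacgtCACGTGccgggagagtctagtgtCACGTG
ATG5: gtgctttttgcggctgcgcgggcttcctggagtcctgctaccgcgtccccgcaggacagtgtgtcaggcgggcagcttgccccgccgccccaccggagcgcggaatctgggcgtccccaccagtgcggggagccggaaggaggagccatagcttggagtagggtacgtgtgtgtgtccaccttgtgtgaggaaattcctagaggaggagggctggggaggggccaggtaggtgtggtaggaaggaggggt
AMBRA1: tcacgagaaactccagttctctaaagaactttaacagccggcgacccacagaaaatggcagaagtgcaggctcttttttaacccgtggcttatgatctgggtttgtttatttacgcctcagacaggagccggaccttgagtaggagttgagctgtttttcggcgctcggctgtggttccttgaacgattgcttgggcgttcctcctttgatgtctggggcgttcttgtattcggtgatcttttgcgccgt

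The table gave 41 windows of 300 bases, 250 before and 50 after a start, for 30 of the 34 genes. BNIP3L, PINK1, RB1CC1 and UVRAG had no entry. CACGTG, its own reverse complement, lay in 1 of the 41 windows against 7.26% of all 35116 windows of that length, and its 2 matches in ATG3 begin 18 bases before the start and after 5 transcribed bases. TGACNNNGC, the core of the antioxidant response element, was found on either strand in 2 windows, those of MAP1LC3B and CALCOCO2, against 13.3% of all windows. GTAAACA, a FOXO element, was found in 1, that of CALCOCO2, against 3.42%, and TGATGNAA, an element of ATF4 and CHOP, in 0, against 3.62%. None of these matches overlap in a member's window. They are descriptions of letters and not of binding sites.

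Between 23900000 and 29350000 counted reads are estimated for each of the 3 libraries. The markers of a basal and mesenchymal line (VIM, CD44, AXL, CAV1, MSN and ZEB1) were all above 1 RPKM in every library, with sums of 1135 to 1324 RPKM. Of 6 luminal markers 2 were above 1 RPKM in every library (sums of 3.68 to 4.17), and endothelial markers summed to at most 0.170. Of the leukocyte markers PTPRC was at most 0.0264 RPKM, while CD68, a lysosomal protein gene not limited to leukocytes, took nearly all of a sum of 36.7 to 51.6. TRIM28 stood at 28.7 RPKM (wt), 32.3 (S473A) and 25.6 (S473D), values that do not separate the cells' own transcript from the re-expressed form. In S473D the median difference from wt over all 11572 genes tested was -0.10 on the log2(RPKM + 1) scale, on which all differences below are given. Differences after subtraction of that median are called centred. Intervals beside ratios of RPKM are exact 95% binomial intervals from estimated reads and cover counting error only.

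Levels spanned more than 3 orders of magnitude. GABARAP was the highest of the 34 genes in every library, at 68.6 RPKM (wt), 69.9 (S473A) and 79.6 (S473D). SQSTM1, PINK1, GABARAPL2 and VMP1 followed it in wt, at 47.5, 47.4, 42.0 and 40.8 RPKM, and these 5 lay between percentiles 86.4 and 93.0 of mean level among the genes tested. At the other end ULK2, the close relative of the initiating kinase ULK1, stood at 0.0171 RPKM (wt), 0.0520 (S473A) and 0.0273 (S473D), which is an estimated 3, 9 and 4 reads. ATG10 and TFEB were the lowest of the genes tested, at 1.37 and 1.31 RPKM in wt, percentiles 4.06 and 3.28. The 34 genes together summed to 646 RPKM (wt), 642 (S473A) and 679 (S473D).

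**Figure D1:**
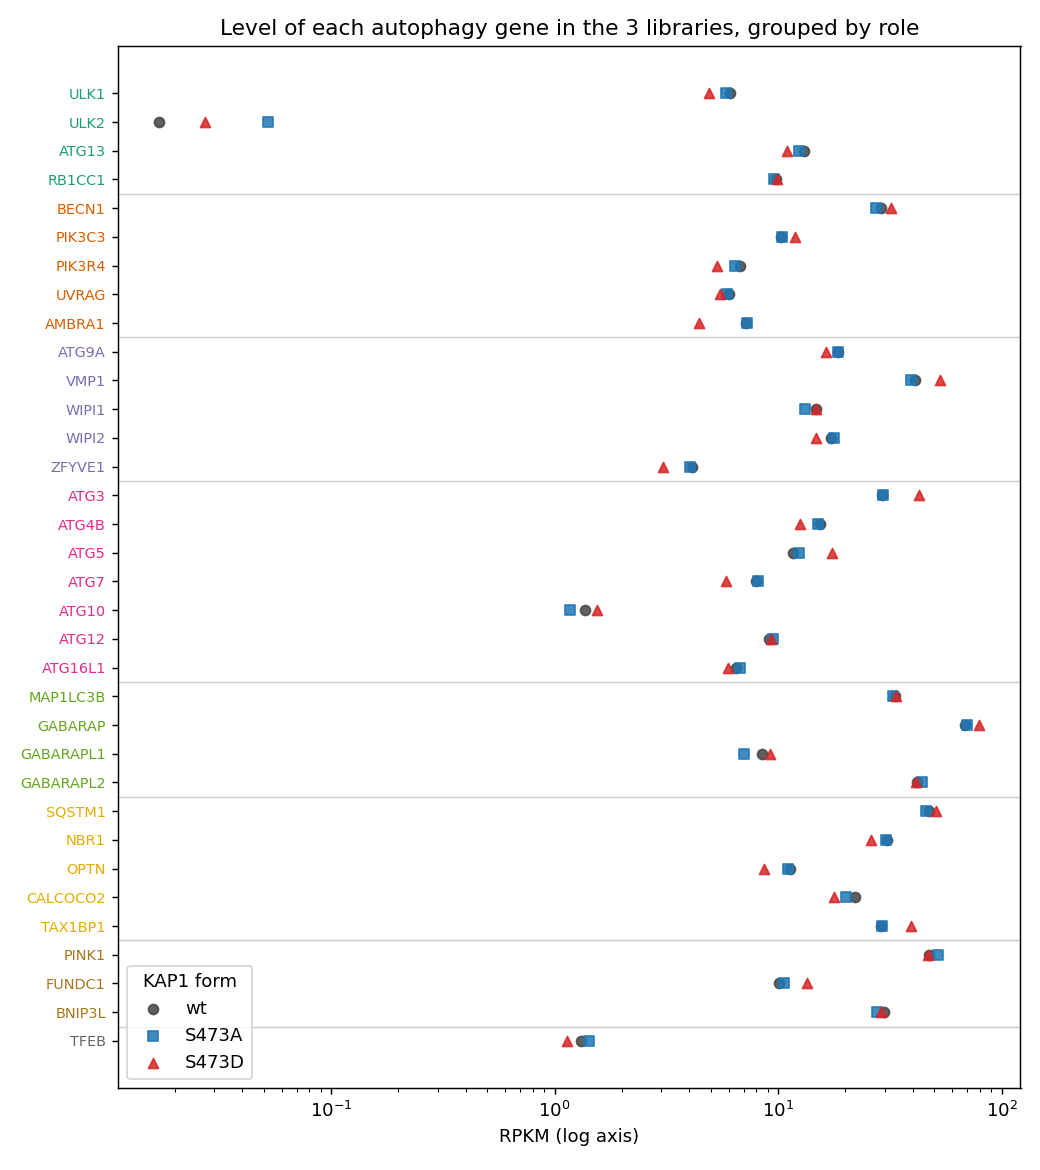
RPKM (log axis) of each of the 34 genes in the wt, S473A and S473D libraries, 1 point per library, with genes grouped and coloured by role. wt and S473A points lie close together, while S473D is to the right for ATG3, ATG5, TAX1BP1, VMP1 and FUNDC1 and to the left for AMBRA1, ATG7, ZFYVE1 and OPTN.

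Cells with the alanine form had nearly the levels of wild-type cells throughout the pathway. Of the 33 genes 14 were higher (all genes: 49.7%) and 19 lower (50.2%) in S473A, with differences from -0.24 to 0.13 and a median of -0.02, against 0.00 for all genes tested. None was 1.5-fold apart on the log2(RPKM + 1) scale, where 0.0951% of all genes were higher by that much and 0.147% lower. The counting interval lay wholly above 1 for 1 gene (7.57% of all genes) and wholly below 1 for 4 (7.91% of all genes). The 5 of 33 genes, 15.2%, stand beside 15.5% of all genes, so their number is no larger than the background.

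GABARAPL1, an ATG8 family gene, had the lowest of these differences, at 8.45 RPKM (wt), 7.03 (S473A) and 9.19 (S473D). It was 1.20-fold higher in wt than in S473A (interval 1.05 to 1.38, log2 difference -0.24), and S473A was the lowest of the 3 libraries. WIPI1, which reads the phosphatidylinositol mark, stood at 14.8 RPKM (wt), 13.3 (S473A) and 14.8 (S473D) (S473A against wt 0.898, interval 0.809 to 0.996). CALCOCO2, a receptor for bacteria and damaged mitochondria, was at 22.0, 20.1 and 17.7 RPKM, lower in each substitution than in wt (S473A against wt 0.912, interval 0.858 to 0.969). BNIP3L, a mitophagy receptor of the outer membrane, was at 29.6, 27.8 and 28.7 (0.937, interval 0.889 to 0.987). In the other direction PINK1, the kinase that marks damaged mitochondria, stood at 47.4 RPKM (wt), 51.9 (S473A) and 46.7 (S473D). Its ratio of S473A to wt was 1.10 (interval 1.05 to 1.15, log2 difference 0.13), and S473A was the highest of the 3. All 5 directions held when the differences were centred, after scaling with a trimmed mean of log ratios and after smooth length and GC trends of the transcripts were removed. These steps move little in this comparison, so they could hardly turn a sign. With the trends removed PINK1 went from 0.13 to 0.12 and BNIP3L from -0.09 to -0.08. With the depth taken as 50% of the estimate the 4 genes with an interval below 1 became 1. The antisense gene PINK1-AS shares 58.1% of the PINK1 exon bases in GENCODE, and ARSG on the opposite strand 28.5% of those of WIPI1, so their reads cannot be told apart unless the counting used strand, which is not given in the sources used here.

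In cells with the aspartate form ATG3, ATG5, TAX1BP1, FUNDC1 and VMP1 were furthest above their wild-type level, and AMBRA1, ATG7, OPTN and ZFYVE1 furthest below it. Of the 33 genes 15 were higher (all genes: 39.3%) and 18 lower (60.7%) in S473D, with differences from -0.59 for AMBRA1 to 0.54 for ATG3 and a median of -0.02 against -0.10 for all genes. Only AMBRA1 was at least 1.5-fold lower (3.23% of all genes) and none was 1.5-fold higher (6.83% of all genes). Centring turned those counts to 0 lower and 2 higher, ATG3 and ATG5. Counting intervals lay wholly above 1 for 9 genes (26.9% of all genes) and wholly below 1 for 12 (45.6% of all genes). The 21 of 33 genes, 63.6%, stand beside 72.5% of all genes. The SD of the differences was 0.28 over the 33 genes and 0.37 over all genes tested.

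**Figure D2:**
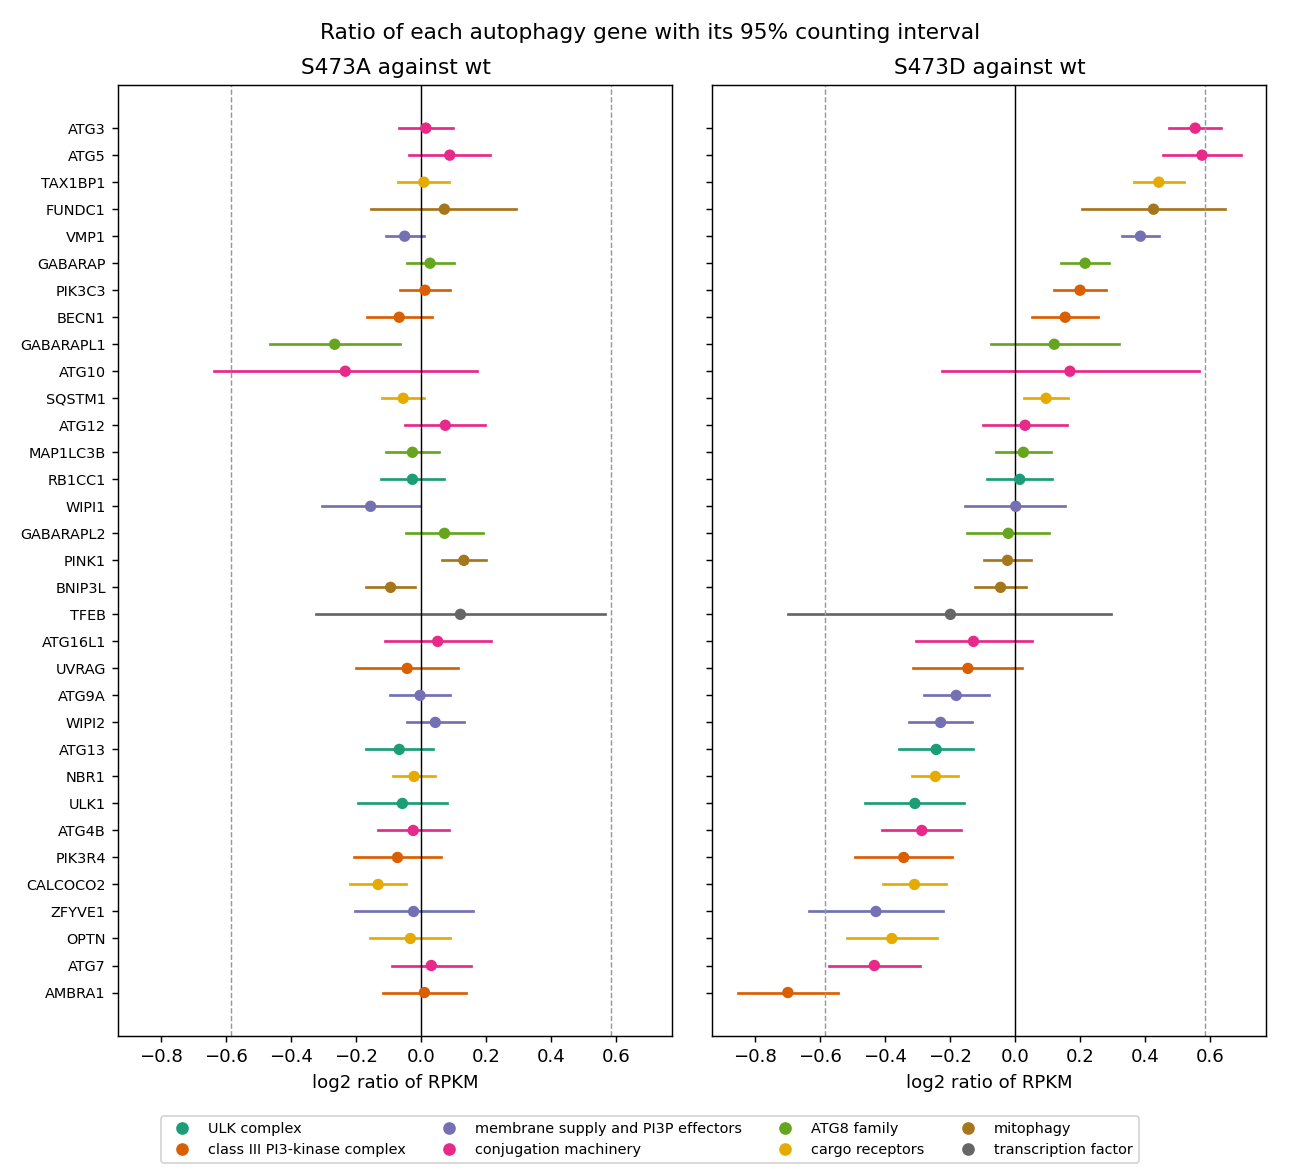
Log2 ratio of RPKM of S473A to wt (left) and of S473D to wt (right) for the 33 genes tested, ordered by the difference between S473D and wt and coloured by role, with bars for exact 95% counting intervals and dashed lines at 1.5-fold; the added 1 RPKM is not in these ratios. The bars mostly cross 0 on the left, whereas on the right 9 lie wholly above it and 12 wholly below.

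The tested members of the ULK complex were lower in S473D or near wt. ULK1, the kinase itself, stood at 6.06 RPKM (wt), 5.83 (S473A) and 4.90 (S473D), and was 1.24-fold higher in wt than in S473D (interval 1.12 to 1.38, log2 difference -0.26). ATG13, its regulatory subunit, was at 13.0, 12.4 and 10.98 RPKM (S473D against wt 0.845, interval 0.781 to 0.914). For these genes S473D was the lowest of the 3 libraries. RB1CC1, the scaffold of the complex, was at 9.76, 9.58 and 9.86 RPKM, with an interval of 0.942 to 1.08 around its ratio. The difference of ULK1 turned to 0.09 once the length and GC trends were removed, and to 0.19 when it was also centred, and that of ATG13 from -0.22 to -0.03, or 0.08 when also centred.

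The lipid kinase complex was split. PIK3C3, the catalytic subunit, stood at 10.3 RPKM (wt), 10.4 (S473A) and 11.8 (S473D) (S473D against wt 1.15, interval 1.09 to 1.21). BECN1, the Beclin subunit that recruits it, was at 28.8, 27.5 and 32.0 RPKM (1.11, interval 1.04 to 1.19). Both were highest in S473D. PIK3R4, the regulatory subunit bound to the same catalytic chain, was at 6.76, 6.43 and 5.33 RPKM and lowest in S473D (0.788, interval 0.710 to 0.874). AMBRA1, which activates Beclin and links it to the ULK kinase, was at 7.19 RPKM (wt), 7.24 (S473A) and 4.43 (S473D). The wt and S473A values differed by less than their counting error, and AMBRA1 was 1.62-fold higher in wt than in S473D (interval 1.46 to 1.81, log2 difference -0.59, or -0.49 centred). UVRAG, a Beclin partner in late steps, was at 6.06, 5.88 and 5.47 RPKM, with an interval of 0.804 to 1.01. CNTD1 on the opposite strand shares 23.5% of the BECN1 exon bases. With the trends removed AMBRA1 was at -0.30, PIK3R4 at -0.24 and PIK3C3 at 0.20, and BECN1 turned to -0.05, or 0.05 when also centred.

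Of the 5 members for membrane supply and the phosphatidylinositol mark only VMP1 had an interval above 1. VMP1 is a membrane protein of the endoplasmic reticulum that passes lipid to the growing autophagosome. It stood at 40.8 RPKM (wt), 39.4 (S473A) and 53.3 (S473D), a ratio to wt of 1.31 (interval 1.26 to 1.36, log2 difference 0.38). ZFYVE1, which marks the sites where autophagosomes form, was at 4.11, 4.04 and 3.05 RPKM and 1.35-fold higher in wt than in S473D (interval 1.17 to 1.55). S473D stood outside the other libraries in each case, above them for VMP1 and below them for ZFYVE1. WIPI2, which brings the conjugation machinery to the membrane, was at 17.3, 17.8 and 14.7 RPKM (0.853, interval 0.798 to 0.912). ATG9A, the lipid scramblase of the vesicles that seed the membrane, was at 18.5, 18.4 and 16.3 (0.882, interval 0.823 to 0.945). With the trends removed VMP1 was at 0.27, or 0.37 when also centred, and ZFYVE1 at -0.12, or -0.02 when also centred, while WIPI2 turned to 0.01 and ATG9A to 0.04. Another gene on the same strand shares 43.5% of the ATG9A exon bases, so its reads are uncertain.

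The conjugation machinery held the highest differences of the 33 genes and 1 of the lowest. ATG3, the conjugating enzyme that passes ATG8 proteins to lipid, stood at 29.1 RPKM (wt), 29.4 (S473A) and 42.7 (S473D). Its ratio of S473D to wt was 1.47 (interval 1.39 to 1.55, log2 difference 0.54, or 0.64 centred). ATG5, part of the complex that directs ATG3 to the membrane, was at 11.7, 12.4 and 17.4 RPKM, a ratio of 1.49 (interval 1.37 to 1.62, log2 difference 0.54, or 0.64 centred). For these genes wt and S473A lay together and S473D alone was high. ATG7, the activating enzyme that loads ATG3, went the other way, at 7.93 RPKM (wt), 8.10 (S473A) and 5.87 (S473D). It was 1.35-fold higher in wt than in S473D (interval 1.22 to 1.49, log2 difference -0.38), and S473D alone was low. The protease gene ATG4B, whose product primes ATG8 proteins, was at 15.4, 15.1 and 12.6 RPKM (0.819, interval 0.753 to 0.890).

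The partners joined to ATG5 did not share its difference. ATG12, which is coupled to ATG5, was at 9.06 RPKM (wt), 9.53 (S473A) and 9.25 (S473D) (1.02, interval 0.934 to 1.12). ATG16L1, which binds that conjugate, was at 6.496, 6.73 and 5.94 (0.915, interval 0.810 to 1.04). ATG10, the conjugating enzyme for ATG12, was at 1.37, 1.17 and 1.54 RPKM, and its interval of 0.856 to 1.48 leaves changes of that size undetectable at this depth. With the trends removed ATG3 was at 0.34, ATG5 at 0.33, ATG7 at -0.16 and ATG4B at -0.10. When they were also centred ATG4B was at 0.00 and ATG7 at -0.06. VGLL4 on the opposite strand shares 32.2% of the ATG7 exon bases, while ATG3, ATG5 and AMBRA1 share none with another gene in GENCODE.

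Ratios between partners within a library do not depend on how libraries are scaled, and the pairs were taken for this after their values had been seen, so that a higher ratio in S473D is a description and was fixed by the choice in most of them. The RPKM ratio of ATG3 to ATG7 was 3.67 in wt (interval 3.41 to 3.96), 3.63 in S473A (3.38 to 3.89) and 7.27 in S473D (6.70 to 7.91). The S473D ratio was 1.98 times that in wt, and the interval of S473D did not meet those of the other libraries. The ratio of ATG5 to ATG16L1 was 1.80 (wt), 1.85 (S473A) and 2.93 (S473D), and that of ATG5 to ATG12 1.29, 1.30 and 1.88. BECN1 to AMBRA1 was 4.003, 3.79 and 7.23, and PIK3C3 to PIK3R4 1.53, 1.62 and 2.22. On the log2(RPKM + 1) scale, which unlike the RPKM ratios includes the added 1, the S473D to wt difference of ATG3 exceeded that of ATG7 by 0.92, and by 0.51 once the length and GC trends were removed. The same values were 0.74 and 0.25 for BECN1 to AMBRA1, 0.65 and 0.36 for ATG5 to ATG16L1, and 0.48 and 0.44 for PIK3C3 to PIK3R4. Flatter ratios as deposited were those of GABARAP to MAP1LC3B, 1.14 times as high in S473D as in wt, GABARAP to GABARAPL2 (1.18 times) and SQSTM1 to NBR1 (1.27 times). On the log2 scale these went from 0.19 to -0.01, from 0.23 to 0.60 and from 0.33 to 0.41 with the trends removed. GABARAP to GABARAPL2 was then above the ATG3 to ATG7 value of 0.51. Among the first 4 pairs given on the log2 scale, removal of the trends took least from the PIK3C3 pair and most from the BECN1 pair.

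**Figure D3:**
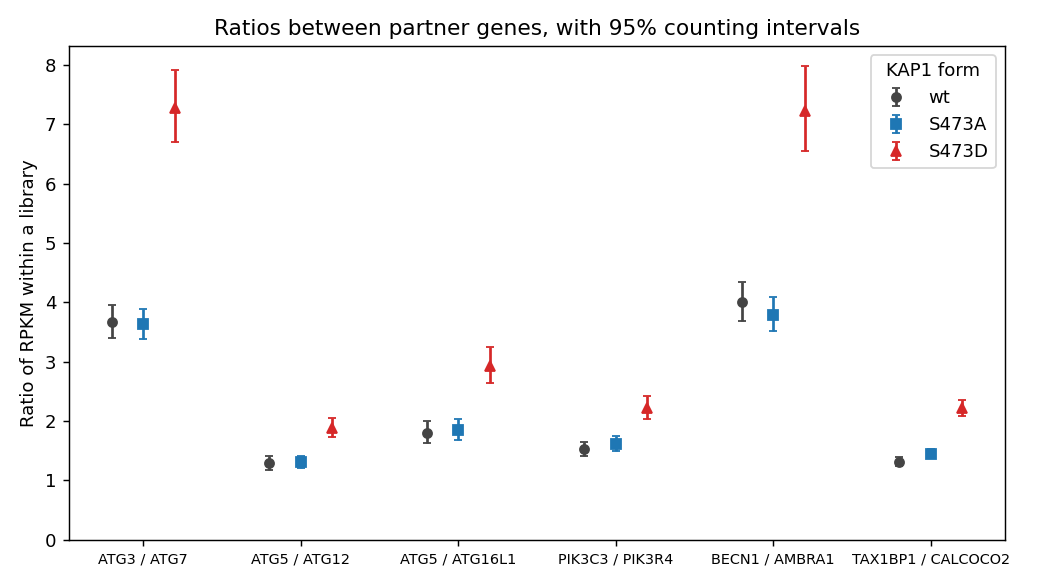
RPKM ratio of 1 gene to its partner within each library for 6 pairs chosen after their values were seen, with bars for exact 95% counting intervals. The ATG3 to ATG7 ratio is 7.27 in S473D against 3.67 in wt.

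The ATG8 family, whose proteins coat the membrane and hold the receptors, was nearly level. The ratio of GABARAP in S473D to wt was 1.16 (interval 1.10 to 1.22), a difference of 0.21 that was -0.02 with the trends removed and 0.08 when also centred. Another gene on the same strand shares 30.5% of its exon bases. MAP1LC3B, the gene of the usual autophagosome marker, stood at 33.2 RPKM (wt), 32.6 (S473A) and 33.8 (S473D) (1.02, interval 0.959 to 1.08). GABARAPL2 was at 42.0, 44.1 and 41.4 RPKM (0.985, interval 0.903 to 1.07). The 4 genes summed to 152 RPKM (wt), 154 (S473A) and 164 (S473D), of which GABARAP took 45.0%, 45.5% and 48.6% and MAP1LC3B 21.8%, 21.2% and 20.6%. GABARAPL2 has the shortest transcript of the 33 genes, 1002 bases, and with the trends removed its difference moved from -0.02 to -0.62, the only 1.5-fold difference of the 33 on that scale (3.28% of all genes were lower by that much and 1.71% higher). MAP1LC3B2, a near-identical copy of MAP1LC3B listed at 24.7 RPKM in wt, can share its reads, so the levels of both are uncertain.

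Cargo receptors separated into a pair that was higher in S473D and 3 that were lower. TAX1BP1, a receptor for ubiquitin-marked aggregates, stood at 28.97 RPKM (wt), 29.1 (S473A) and 39.4 (S473D) (1.36, interval 1.29 to 1.43, log2 difference 0.43). SQSTM1, the sequestosome receptor, was at 47.5, 45.7 and 50.7 RPKM (1.07, interval 1.02 to 1.12, log2 difference 0.09). S473D was the highest library for each. OPTN, the optineurin receptor of mitophagy, was at 11.3, 11.01 and 8.67 RPKM and 1.30-fold higher in wt than in S473D (interval 1.18 to 1.43, log2 difference -0.34). CALCOCO2, a relative of TAX1BP1, was 1.24-fold higher in wt than in S473D (interval 1.16 to 1.32), and NBR1, at 30.8, 30.4 and 26.0 RPKM, 1.19-fold (interval 1.13 to 1.25). S473D was the lowest library for these 3. The RPKM ratio of TAX1BP1 to CALCOCO2 was 1.32 (wt), 1.45 (S473A) and 2.22 (S473D). Receptors kept their directions in each scaling and with the trends removed, where TAX1BP1 was at 0.19, SQSTM1 at 0.22, OPTN at -0.39, CALCOCO2 at -0.33 and NBR1 at -0.19. MRNIP on the opposite strand shares 39.8% of the SQSTM1 exon bases.

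Of the 3 mitophagy genes among the members only FUNDC1, an outer-membrane receptor that responds to low oxygen, had an interval apart from 1 in S473D. It stood at 10.1 RPKM (wt), 10.6 (S473A) and 13.5 (S473D) (1.34, interval 1.15 to 1.56, log2 difference 0.39). Its transcript of 1196 bases is among the shortest, and with the trends removed the difference turned to -0.21, or -0.10 when also centred. PINK1 (0.984, interval 0.935 to 1.03) and BNIP3L (0.969, interval 0.917 to 1.02) had intervals that include 1 as deposited. With the trends removed PINK1 was at 0.06 and BNIP3L at -0.20, or 0.16 and -0.10 when also centred. TFEB, the transcription factor of the pathway, was at 1.31 RPKM (wt), 1.42 (S473A) and 1.14 (S473D), about 79 reads in wt, and its interval of 0.617 to 1.23 leaves a difference undetectable at this depth.

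Differences between S473D and wt ran with 2 properties that the choice of genes did not use. Across the 33 genes, measured in the same pair of libraries, Spearman's rho of the difference with transcript length was -0.51 and with GC content -0.54, and across all genes with a transcript it was -0.44 and -0.26. For S473A against wt the values over the 33 genes were -0.07 and 0.04. All genes were cut into 3 equal classes by each property. The 12 members among the longest transcripts (from 4307 bases) had a median difference of -0.23 against -0.24 for all genes of that class, and the 7 among the shortest (up to 2404 bases) 0.11 against 0.13. The 14 members of middle length had a median of -0.03 against -0.12. By GC content, the 8 members in the highest class had a median of -0.19, equal to the -0.19 of all such genes. The 11 members in the lowest class had a median of 0.18 against 0.00, and 9 of the 11 were higher in S473D against 50.7% of all such genes. ATG3, ATG5, TAX1BP1, VMP1, FUNDC1 and PIK3C3 were among the 9, while PIK3R4 (-0.29) and BNIP3L (-0.04) were the 2 lower. The part of RNA quality or library preparation in these trends was not tested.

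**Figure D4:**
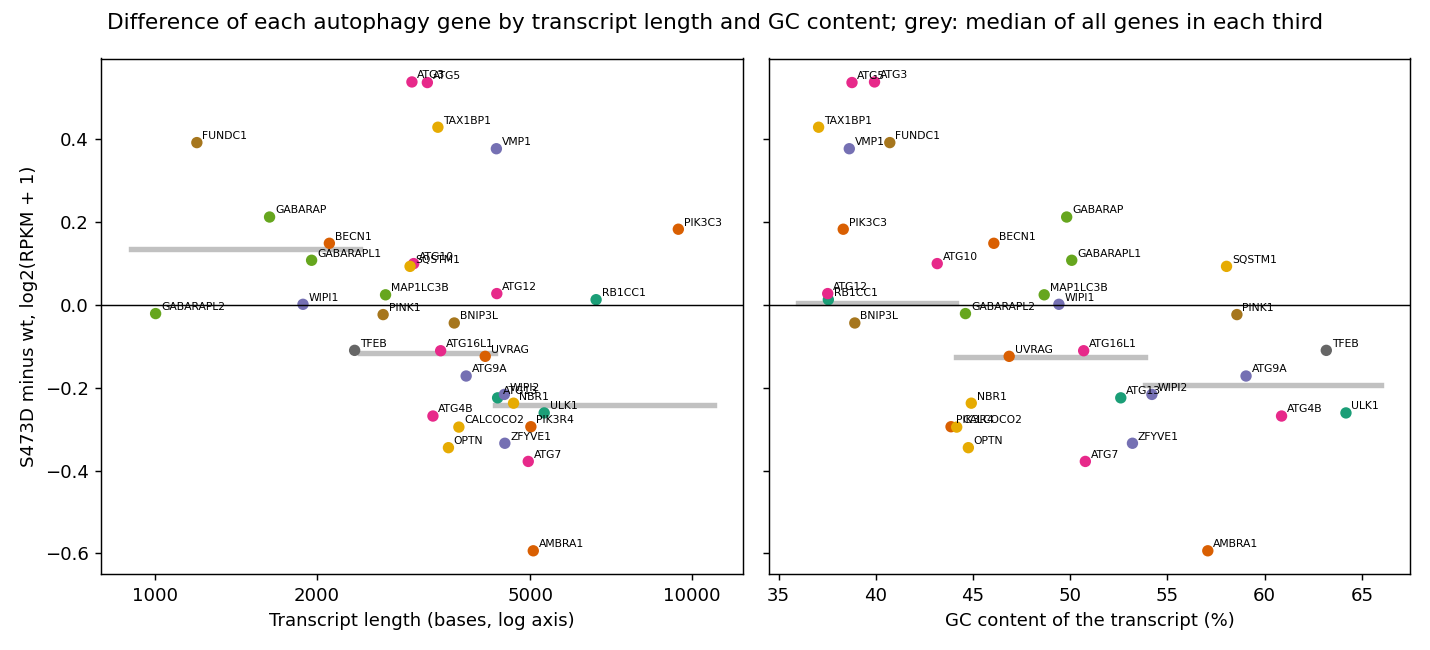
Difference between S473D and wt, log2(RPKM + 1), of each of the 33 genes against transcript length (left, log axis) and GC content (right), coloured by role, with grey bars at the median of all genes in each of 3 equal classes. Of the 8 genes in the highest GC class 7 lie below 0 and 1 above it, where 28.4% of all genes of that class were higher. The 5 highest points all have at most 40.7% GC.

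After smooth trends on both properties were removed and the differences centred, 8 of the 9 genes with an interval above 1 and 7 of the 12 with an interval below 1 kept their direction. The highest were then ATG3 (0.45), ATG5 (0.44), VMP1 (0.37), SQSTM1 (0.32), PIK3C3 (0.31) and TAX1BP1 (0.29). The lowest were GABARAPL2 (-0.52), OPTN (-0.28), CALCOCO2 (-0.23), AMBRA1 (-0.20) and PIK3R4 (-0.14). FUNDC1 turned below 0, and ULK1, ATG13, ATG9A, WIPI2 and ATG4B turned to 0 or above. With the trends removed but no centring, 6 of the 9 and 9 of the 12 kept their direction. In that setting BECN1, GABARAP and FUNDC1 turned below 0, and ULK1, ATG9A and WIPI2 above it. Which side held better thus depends on the centring.

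**Figure D5:**
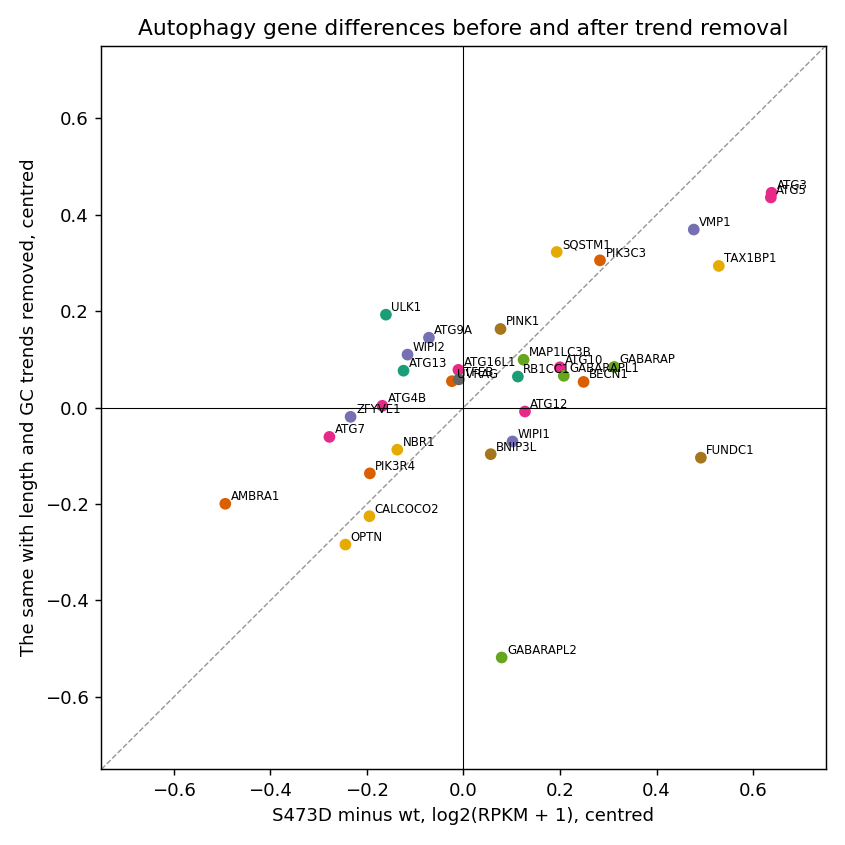
Centred difference between S473D and wt of each of the 33 genes before (x axis) and after (y axis) removal of trends on transcript length and GC content, both on log2(RPKM + 1), with a dashed line of equality. ATG3 and ATG5 stay highest, at 0.45 and 0.44, FUNDC1 crosses to -0.10 and GABARAPL2 drops to -0.52.

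Set against S473A in place of wt, S473D is compared through the same S473D library, so the values stand beside the earlier ones and add no separate support. Here 15 of the 33 genes were higher (39.3% of all genes) and 18 lower (60.7%), with a median of -0.09 against -0.10 for all genes. AMBRA1 (-0.60) was the only gene 1.5-fold lower (3% of all genes) and none was 1.5-fold higher (6.86% of all genes), and centring turned this to 0 lower and 1 higher, ATG3. ATG3 was at 0.52, ATG5 at 0.46, VMP1 at 0.43, TAX1BP1 at 0.42 and ATG7 at -0.41. Intervals lay wholly above 1 for 12 genes (27.3% of all genes) and wholly below 1 for 14 (46.1% of all genes), together 78.8% of the 33 genes beside 73.4% of all genes. Some genes had an interval apart from 1 here and not against wt. GABARAPL1 (0.34), ATG10 (0.23) and WIPI1 (0.15) were higher, and PINK1 and ATG16L1 (both -0.15) lower, although WIPI1, PINK1 and ATG16L1 turned in sign with the trends removed or with that and centring.

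Other autophagy genes, 36 of a list of 40 that reached the minimum level, were likewise spread on either side of wt. In S473D against wt 16 were higher (39.3% of all genes) and 20 lower (60.7%), with a median of -0.01 against -0.10 for all genes. At 1.5-fold 2 were higher (6.83% of all genes) and 3 lower (3.23%). BNIP3, a mitophagy receptor and relative of BNIP3L, stood at 72.1 RPKM (wt), 69.8 (S473A) and 118 (S473D), a ratio to wt of 1.64 (interval 1.59 to 1.70, log2 difference 0.71, or 0.61 with the trends removed). VAMP8, which fuses autophagosomes with lysosomes, was at 41.8, 38.9 and 64.1 RPKM (0.61, or 0.08 with the trends removed). TFE3, a relative of TFEB, was at 22.6, 23.0 and 14.3 RPKM (-0.62, or -0.45), so that it stood far above TFEB in level in each library. The others lower by 1.5-fold were TP53INP2 (-0.69, or -0.46), whose product binds ATG8 proteins, and RUBCN (-0.64, or -0.35), a brake on the lipid kinase complex. Against S473A, BNIP3 (0.75), VAMP8 (0.71) and TFE3 (-0.65) were 1.5-fold apart (6.86% of all genes higher, 3% lower). With the trends removed these were 0.64, 0.16 and -0.47, so that BNIP3 alone of the 3 was still 1.5-fold apart. In S473A against wt none of the 36 was 1.5-fold apart, with ATG4D (0.20) and ATG4A (0.14) highest and DRAM1 and TP53INP2 (both -0.15) lowest.

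Genes of the mTORC1 kinase, which holds autophagy back when nutrients are plentiful, and of its control on the lysosome were also divided. Of 23 genes 11 were higher (39.3% of all genes) and 12 lower (60.7%) in S473D than in wt, with a median of -0.06 against -0.10 for all genes. At 1.5-fold 1 was higher (6.83% of all genes) and 0 were lower (3.23%). The 1 was LAMTOR4, a subunit of the lysosomal anchor, at 34.01 RPKM (wt), 37.6 (S473A) and 72.3 (S473D). Its log2 difference was 1.07, or 0.53 with the trends removed, which is under 1.5-fold without centring. Next below it was LAMTOR3 at 0.56, and the lowest were NPRL3 (-0.58) and TSC1 (-0.57), whose products restrain mTORC1. Against S473A, LAMTOR4 (0.92), LAMTOR5 (0.67), NPRL3 (-0.63) and TSC1 (-0.62) were 1.5-fold apart (6.86% of all genes higher, 3% lower). With the trends removed none of these 4 was, at 0.38, 0.12, -0.48 and -0.38. In S473A against wt none was, with LAMTOR4 (0.14) and RPTOR (0.08) highest and DEPTOR (-0.22) and RRAGB (-0.14) lowest.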

How the data were processed

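RPKM values of 3 libraries, 1 per group, were deposited as log2, with 0.1 added beforehand, as the lowest value of -3.32 shows. The authors aligned reads with Bowtie and used Partek and build hg19, per the submitters' processing notes. For versions, gene annotation, counting rule and strand, the sources used here give nothing. Of 19076 rows 27 with symbols turned into dates were left out. RPKM was recovered by undoing the log, genes with a mean under 1 RPKM and 176 short RNAs were dropped, and differences were taken on log2(RPKM + 1). Depth is not in the table: it was estimated from RPKM multiplied by transcript length (GENCODE release 29, GRCh38, 1 transcript per symbol: the longest that RefSeq also lists, if any), as 25700000 (wt), 29350000 (S473A) and 23900000 (S473D) reads. Between 44.5% and 46.1% of low values were whole reads within 2%, so depths, reads and intervals are estimates. RPKM is relative to all counted reads and keeps any preference of a library for short transcripts. Trends were removed by lowess (fraction 0.2, 2 rounds) on log2 length and GC content over 10784 genes, keeping the overall median. The differences, the intervals and the removal of a length trend were tried on simulated reads. The simulation took the estimated depths as true and held no GC trend, so it could not test the depth estimate or the GC step.

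Genes were called at 1.5-fold, and no test exists with 1 library per group. All 34 genes of the group are named. Of the wider autophagy and mTORC1 lists, those 1.5-fold apart and otherwise the 2 highest and lowest are named, and a few more were picked after their values were seen. The members, lists and motifs were chosen with earlier results of these data known. Alternatives comprised 0.1 and 0.5 as pseudocount, a minimum mean of 5 RPKM or none, centring, a trimmed mean of log ratios (30% and 5% trimmed), short RNAs kept, trends removed, and a lower depth. Removal of trends together with centring was added after seeing the data. Python 3.11.15, scipy 1.17.1 and statsmodels 0.14.6 were used.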

Additional observations from a re-analysis of the deposited data

How the results depend on the processing

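With 1 library per group no library could be left out, and no paired analysis was possible because the groups have no replicates. The sign of the median difference of the 33 genes depends on the scaling. For S473D against wt it went from -0.02 to 0.08 (centred), 0.09 (trimmed mean) and 0.06 (length and GC trends removed and centred). For S473D against S473A it went from -0.09 to 0.01, 0.02 and 0.061 in the same settings. Counts of genes 1.5-fold apart depend on the scaling in S473D. Against wt they were 0 higher and 1 lower as deposited, but 2 higher and 0 lower both when centred and with a trimmed mean of log ratios, and 0 lower with trends removed and centred. With trends removed alone the 1 lower gene was GABARAPL2 in place of AMBRA1. Against S473A they were 0 higher and 1 lower as deposited, and 1 higher and 0 lower with either scaling. In S473A against wt they stayed at 0 in every setting. With 50% of the depth the genes with an interval below 1 in S473A against wt went from 4 to 1. AMBRA1 was lower in S473D in every setting, whereas GABARAPL2 was at -0.62 against wt with trends removed and at 0.08 when centred. Of 99 differences of single genes, 27 moved by more than their counting error on centring, 30 with the trimmed mean and 41 with trends removed, and 0 with another pseudocount, without the filter or with short RNAs kept.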
